A study of Mus musculus with 70 samples.

Results

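The genes described here are Cic, which encodes the transcriptional repressor Capicua, its partners Atxn1 and Atxn1l, and 6 corepressor genes, Sin3a, Sin3b, Hdac1, Hdac2, Hdac3 and Ncor1. They were chosen by name, through the Ensembl identifier of each symbol, and make up 9 of the 50789 genes in the table of read counts. All 9 were found and passed the filter on low counts in each tissue. RNA was sequenced from lung at postnatal day 6 and from cortex and cerebellum at 12 weeks of age. The mice were labelled Cic-S-KO, Cic-L-KO or WT, names that stand for loss of the short isoform of Capicua, loss of the long isoform, and neither. WT mice were littermates of both knockout lines pooled together, so both knockouts were compared with the same WT samples in every tissue. How the alleles were made, the sex of the mice and the line each WT mouse came from are not given in the sources used here. Each of the 9 groups held 8 samples, except Cic-S-KO cortex and Cic-S-KO cerebellum with 7 each, which gave 70 samples.

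Capicua is a DNA-binding protein with an HMG box that sits on octamers (listed with the promoters) near its target genes and keeps them low. ATXN1, the protein whose expanded polyglutamine tract causes spinocerebellar ataxia, and its close relative ATXN1L bind Capicua and protect it from being degraded. Corepressors carry out much of the silencing by such factors: SIN3 proteins are scaffolds that hold the histone deacetylases HDAC1 and HDAC2, and NCOR1 holds and activates HDAC3.

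Total counts per sample ran from 17798655 to 35523037, with a median of 24767117, and a count of one of the 9 genes in a sample lay between 672 and 11698. Levels are given as CPM, read counts scaled to library size with TMM factors over the 70 samples. Summed lung, cortex and cerebellum markers were highest in the tissue of that label in every group. Lung carries the label of batch 1 and brain that of batch 2, so tissue, age and batch cannot be told apart between lung and brain. The labels number the samples but do not say that each was a separate animal. Each p-value weighs a difference against the spread between these samples. The coefficient of variation within a group, averaged over the 9 groups, was between 4.77% for Hdac1 and 7.70% for Atxn1, against a median of 6.72% among the 4775 genes at least as highly expressed as the lowest of the 9. Differences are log2 fold changes from edgeR's quasi-likelihood test, with its Benjamini-Hochberg adjusted p over all genes tested, and a gene rose or fell where that p was under 0.05.

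The short and long isoforms start from different promoters of the same gene. Cic (ENSMUSG00000005442.13) lies on the plus strand of chromosome 7, from 25267704 to 25294159 in GRCm38. In GENCODE M21 the long transcript Cic-212 begins at 25267704 and codes for 2510 amino acids, while the short transcripts Cic-201 and Cic-202 begin at 25282179, 14475 bases downstream, and code for 1604. Cic-212 and Cic-202 share 5355 exonic bases, 2866 bases lie only in Cic-212 (34.9% of it), and 741 only in Cic-202. Counts were summed over the whole gene, so they cannot tell the isoforms apart, and the level of Cic does not check the genotype labels. The 250 bases before each start, from RefSeq on GRCm38.p6, are shown because the 2 knockouts are named for the products of these 2 starts. The window upstream of one Sin3a start is added because, of the 9 windows found for 6 of the 9 genes, it alone held a Capicua octamer (in capitals), 102 bases before the start.
Cic long, chr7:25267449-25267698, plus strand: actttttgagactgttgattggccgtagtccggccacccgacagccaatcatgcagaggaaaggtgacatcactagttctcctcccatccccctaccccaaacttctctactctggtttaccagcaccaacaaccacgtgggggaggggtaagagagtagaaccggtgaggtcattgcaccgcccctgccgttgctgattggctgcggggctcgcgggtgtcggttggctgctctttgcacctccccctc
Cic short, chr7:25281929-25282178, plus strand: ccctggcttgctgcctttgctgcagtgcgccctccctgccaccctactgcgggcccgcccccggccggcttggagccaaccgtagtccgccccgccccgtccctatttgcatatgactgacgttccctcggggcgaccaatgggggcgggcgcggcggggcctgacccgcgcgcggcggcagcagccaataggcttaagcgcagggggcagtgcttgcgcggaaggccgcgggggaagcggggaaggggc
Sin3a, chr9:57071790-57072039, plus strand: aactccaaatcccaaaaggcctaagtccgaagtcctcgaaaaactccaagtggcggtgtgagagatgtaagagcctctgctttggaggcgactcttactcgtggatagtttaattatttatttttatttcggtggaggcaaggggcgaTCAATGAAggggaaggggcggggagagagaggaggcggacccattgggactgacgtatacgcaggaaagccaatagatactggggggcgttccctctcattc
The octamers searched on both strands were TGAATGAA, TGAATGGA, TCAATGAA and TCAATGGA, in windows of 300 bases that also held the 50 bases after the start. They occurred in 1260 of 32851 such windows of the genome, or 3.84%. G and C made up 60.3% of the 300 bases at the long start of Cic and 74.3% at the short start, neither of which held an octamer. A match in this window is a run of letters and not a measured binding site.

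**Figure D1:**
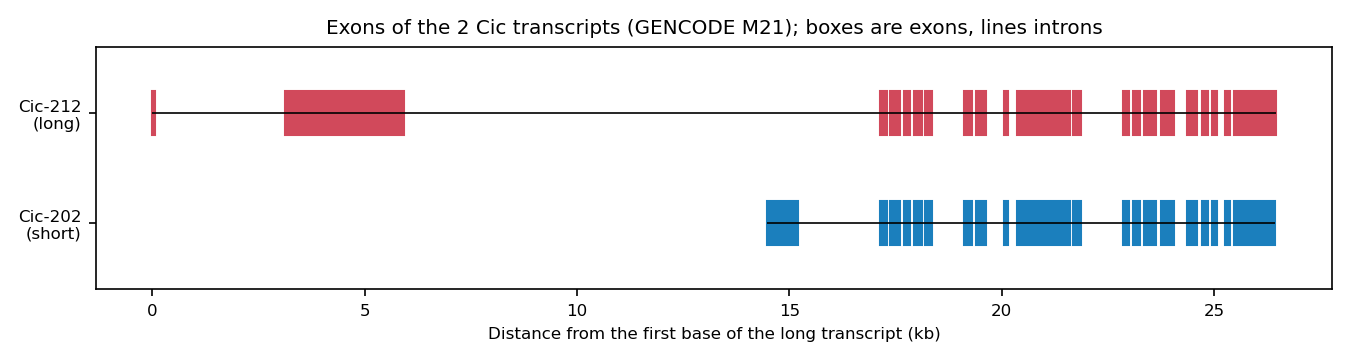
Exons of the long transcript Cic-212 and the short transcript Cic-202, drawn to scale by distance in kb from the first base of Cic-212. The 2 starts lie 14475 bases apart, and the transcripts share 5355 exonic bases.

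Total Cic RNA was not lower than in WT at the threshold in any knockout group, and in cortex it was higher in both knockouts. In WT cortex the lowest, median and highest samples stood at 165, 176 and 191 CPM. Cic-S-KO cortex stood at 261, 275 and 286 CPM, and Cic-L-KO cortex at 292, 328 and 342 CPM. The 3 genotypes of the cortex therefore occupied 3 separate ranges, with WT lowest and Cic-L-KO highest. Against WT, Cic rose 1.55-fold in Cic-S-KO (log2 0.63, SE 0.038, adjusted p = 1.35e-12) and 1.84-fold in Cic-L-KO (0.88, SE 0.037, adjusted p = 9.49e-18). Set against Cic-L-KO, Cic-S-KO cortex was at -0.25 (SE 0.038, adjusted p = 5.06e-06). Among all genes tested in cortex, 0.342% had every Cic-S-KO sample above every WT sample, 5.51% had every Cic-L-KO sample above them, and 4.8% had every Cic-S-KO sample below every Cic-L-KO sample.

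In lung the 2 knockouts parted. WT lung had a lowest, median and highest level of 114, 123 and 144 CPM, Cic-S-KO lung 135, 156 and 169 CPM, and Cic-L-KO lung 118, 120 and 134 CPM. In 7 of 8 Cic-S-KO samples Cic was above every WT sample, whereas the Cic-L-KO range fell inside that of WT. Cic rose in Cic-S-KO lung (0.31, SE 0.046, adjusted p = 6.41e-05), and its difference in Cic-L-KO lung was -0.039 with a 95% interval from -0.13 to 0.056 (adjusted p = 0.681). All 8 Cic-S-KO samples lay above all 8 Cic-L-KO samples, a separation that 0.581% of lung genes showed in that direction, and the direct contrast was 0.35 (SE 0.046, adjusted p = 1.81e-05).

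The cerebellum showed the smallest spread of Cic levels among genotypes. WT samples were at 175, 194 and 215 CPM at their lowest, median and highest, Cic-S-KO samples at 184, 219 and 232 CPM, and Cic-L-KO samples at 198, 217 and 234 CPM. All 3 ranges overlapped. Cic rose by a log2 difference of 0.15 in Cic-L-KO (SE 0.047, adjusted p = 0.0253), a call that did not hold when GC-dependent deviations were removed (0.090, adjusted p = 0.229). In Cic-S-KO the difference was 0.15 (SE 0.049, adjusted p = 0.05004, just above the threshold). Cic-S-KO replicate 6 was the lowest cerebellar Cic-S-KO sample in Cic, at 184 CPM against up to 232 CPM in the other 6, and had the group's highest summed levels of oligodendrocyte and choroid plexus markers (11194 and 4057 CPM). The highest WT and Cic-L-KO cerebellum sums were 10044 and 9465 CPM for oligodendrocyte markers, and 2981 and 3312 CPM for choroid plexus markers. Cic-S-KO replicate 6 was picked by its oligodendrocyte sum after the data were seen. Without that library the Cic-S-KO difference was 0.19 (adjusted p = 0.0138).

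**Figure D2:**
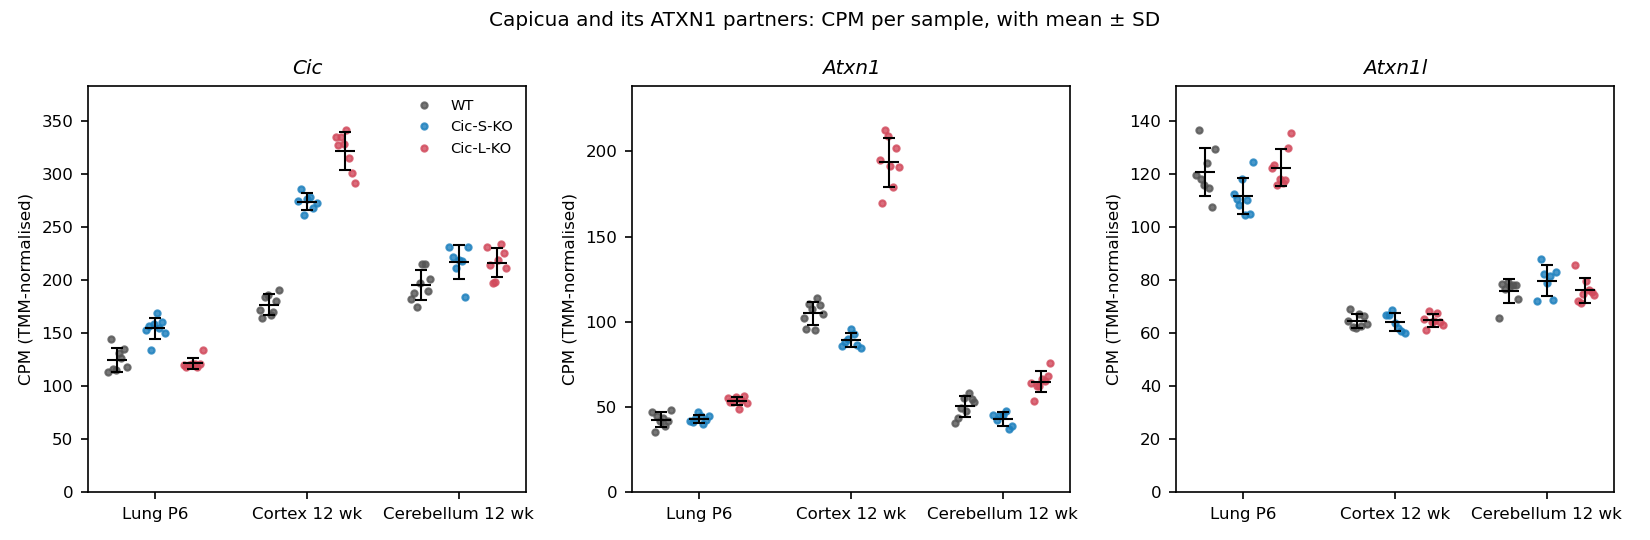
Level of Cic, Atxn1 and Atxn1l in CPM for each sample (points), by tissue and genotype, with the group mean and SD (bars). In cortex the Cic samples of WT (165 to 191 CPM), Cic-S-KO (261 to 286 CPM) and Cic-L-KO (292 to 342 CPM) do not overlap.

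Atxn1 (ENSMUSG00000046876.16; chromosome 13, 45549755 to 45965008, minus strand) encodes the ataxin that binds Capicua. In cortex its lowest, median and highest levels were 95.3, 106 and 114 CPM in WT, 84.8, 88.2 and 95.9 CPM in Cic-S-KO, and 170, 193 and 213 CPM in Cic-L-KO. All Cic-L-KO samples were above all others, and 6 of 7 Cic-S-KO samples were below every WT sample. In cortex 5.51% of genes had all Cic-L-KO samples above all WT samples, and 4.8% had them above all Cic-S-KO samples. Atxn1 fell in Cic-S-KO (-0.23, SE 0.046, adjusted p = 0.00335) and rose 1.87-fold in Cic-L-KO (0.90, SE 0.044, adjusted p = 2.68e-16), so that the 2 knockouts differed 2.19-fold (-1.13 for Cic-S-KO against Cic-L-KO, SE 0.046, adjusted p = 3.22e-18). Cic and Atxn1 thus rose by like amounts in Cic-L-KO cortex, while in Cic-S-KO cortex they changed in opposite directions.

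The rise of Atxn1 in Cic-L-KO was found in all 3 tissues. Lung levels were 35.3, 42.9 and 48.1 CPM in WT, 40.0, 43.0 and 47.4 CPM in Cic-S-KO, and 49.0, 53.7 and 56.7 CPM in Cic-L-KO (lowest, median, highest). Every Cic-L-KO lung sample lay above every WT sample, as in 0.551% of lung genes, and above every Cic-S-KO sample, as in 0.581%. The lung rise in Cic-L-KO was 0.33 (SE 0.053, adjusted p = 0.000408), and the difference in Cic-S-KO lung was 0.022 (95% interval -0.087 to 0.13, adjusted p = 0.811). Cerebellar levels were 40.8, 51.3 and 58.5 CPM in WT, 37.2, 45.2 and 47.9 CPM in Cic-S-KO, and 53.7, 64.8 and 75.7 CPM in Cic-L-KO. The 2 knockouts did not overlap there, a separation in that direction that 1.71% of cerebellar genes showed. Atxn1 rose in Cic-L-KO cerebellum (0.36, SE 0.070, adjusted p = 0.000572), and in Cic-S-KO cerebellum its difference of -0.22 (SE 0.073, adjusted p = 0.0617) missed the threshold. Of the exonic bases of Atxn1, 375 are shared with Gmpr on the other strand, and whether counting used strand is not given in the sources used here.

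Atxn1l (ENSMUSG00000069895.4; chromosome 8, 109726451 to 109737739, minus strand), the paralog that binds Capicua in the same way, did not pass the test against WT in any tissue. Its cortex medians were 64.0 CPM in WT, 63.7 CPM in Cic-S-KO and 64.4 CPM in Cic-L-KO, and the 3 ranges together spanned only 60.1 to 68.9 CPM. The 95% interval of its difference in Cic-L-KO cortex ran from -0.051 to 0.091. In lung its group means were 121 ± 9.11 CPM in WT, 112 ± 6.72 CPM in Cic-S-KO and 122 ± 6.95 CPM in Cic-L-KO (SD, n = 8 each), with the largest difference in size of the 6 at -0.11 in Cic-S-KO (adjusted p = 0.104). The ratio of Atxn1 to Atxn1l per kb of exon was 0.881 ± 0.086 in WT cortex (SD, n = 8), 0.754 ± 0.049 in Cic-S-KO cortex (n = 7) and 1.62 ± 0.107 in Cic-L-KO cortex (n = 8). By this length, which joins all exons of a gene, Atxn1 was above its paralog in the mean of Cic-L-KO cortex only, of the 9 groups. By the longest transcript it was also above it in WT cortex, at 9.93 against 8.59 CPM per kb. The ratio was lowest in WT lung at 0.193 ± 0.024 (n = 8).

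The SIN3 scaffolds moved in opposite directions in Cic-L-KO cortex. Sin3a (ENSMUSG00000042557.14; chromosome 9, 57072040 to 57128366, plus strand) had cortex levels of 39.1, 40.9 and 44.3 CPM in WT, 39.9, 41.9 and 43.4 CPM in Cic-S-KO, and 32.2, 35.4 and 37.9 CPM in Cic-L-KO (lowest, median, highest). Every Cic-L-KO sample was below every WT and every Cic-S-KO sample. In cortex 8.16% of genes had all Cic-L-KO samples below all WT samples, and 5.8% had them below all Cic-S-KO samples. Sin3a fell in Cic-L-KO cortex (-0.21, SE 0.040, adjusted p = 9.29e-05). Sin3b (ENSMUSG00000031622.16; chromosome 8, 72723285 to 72758201, plus strand) stood at 79.1, 85.5 and 96.1 CPM in WT cortex and 93.1, 97.7 and 102 CPM in Cic-L-KO cortex, with 5 of 8 Cic-L-KO samples above every WT sample. It rose (0.18, SE 0.040, adjusted p = 0.000495). The ratio of Sin3a to Sin3b per kb of exon was 0.651 ± 0.057 in WT cortex (SD, n = 8), 0.644 ± 0.050 in Cic-S-KO cortex (n = 7) and 0.495 ± 0.013 in Cic-L-KO cortex (n = 8). Neither gene passed against WT in lung, in cerebellum or in Cic-S-KO cortex, and their largest difference in size there was -0.086, for Sin3a in Cic-L-KO cerebellum (adjusted p = 0.2). Sin3a shares 213 exonic bases with 2 genes on the other strand.

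Among the 3 deacetylases, Hdac3 had the largest difference from WT. Hdac3 (ENSMUSG00000024454.15; chromosome 18, 37935844 to 37955016, minus strand), the enzyme of NCOR complexes, stood at 71.1, 74.6 and 82.4 CPM in WT cortex, 77.3, 79.7 and 86.7 CPM in Cic-S-KO cortex, and 86.6, 92.8 and 96.3 CPM in Cic-L-KO cortex. All Cic-L-KO samples were above all WT samples, as in 5.51% of cortex genes, and 1 Cic-S-KO sample reached into the Cic-L-KO range. Hdac3 rose in Cic-L-KO cortex (0.30, SE 0.034, adjusted p = 1.46e-08), and the difference in Cic-S-KO cortex was 0.084 (SE 0.035, adjusted p = 0.137). In Cic-L-KO cerebellum, where all 8 samples were above the WT mean, the difference of 0.12 did not pass (SE 0.044, adjusted p = 0.0539).

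Hdac1 (ENSMUSG00000028800.15; chromosome 4, 129516104 to 129542713, minus strand), one of the SIN3-bound pair of deacetylases, had 30.5, 33.9 and 38.8 CPM in WT cortex and 34.3, 38.0 and 40.1 CPM in Cic-L-KO cortex. These ranges overlapped, with 3 of 8 Cic-L-KO samples above every WT sample. Hdac1 rose in Cic-L-KO cortex (0.16, SE 0.046, adjusted p = 0.00518) and in Cic-L-KO cerebellum (0.13, SE 0.041, adjusted p = 0.0278). The cerebellar call was lost with no filter on low counts (adjusted p = 0.0853) and with GC-dependent or length-dependent deviations removed (adjusted p = 0.0703 and 0.0603). Hdac2 (ENSMUSG00000019777.16; chromosome 10, 36974544 to 37001889, plus strand), the other of the pair, passed in none of the 6 contrasts with WT. Its cortex medians were 93.7 CPM in WT, 89.1 CPM in Cic-S-KO and 93.3 CPM in Cic-L-KO, and the 95% interval of its difference in Cic-L-KO cortex ran from -0.064 to 0.084. With GC-dependent deviations removed that difference was 0.089 and passed (adjusted p = 0.0338). In Cic-S-KO lung 6 of 8 Hdac2 samples were below every WT sample, with a difference of -0.10 (SE 0.039, adjusted p = 0.0685).

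Ncor1 (ENSMUSG00000018501.17; chromosome 11, 62316426 to 62458541, minus strand), the scaffold that recruits HDAC3, fell in Cic-L-KO cortex while Hdac3 rose. Its levels were 349, 374 and 396 CPM in WT cortex, 310, 363 and 377 CPM in Cic-S-KO cortex, and 299.8, 311 and 325 CPM in Cic-L-KO cortex. No Cic-L-KO sample reached the lowest WT sample, as in 8.16% of cortex genes, whereas the Cic-S-KO samples overlapped both other genotypes. Against WT cortex, Ncor1 differed by -0.26 in Cic-L-KO (SE 0.036, edgeR adjusted p = 8.66e-07) and by -0.079 in Cic-S-KO (SE 0.037, adjusted p = 0.196). All 8 Cic-L-KO cerebellum samples were below the WT mean of 368 ± 34.2 CPM (SD, n = 8), but the difference of -0.10 did not pass (SE 0.050, adjusted p = 0.142). Ncor1 shares 83 exonic bases with genes on the other strand.

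**Figure D3:**
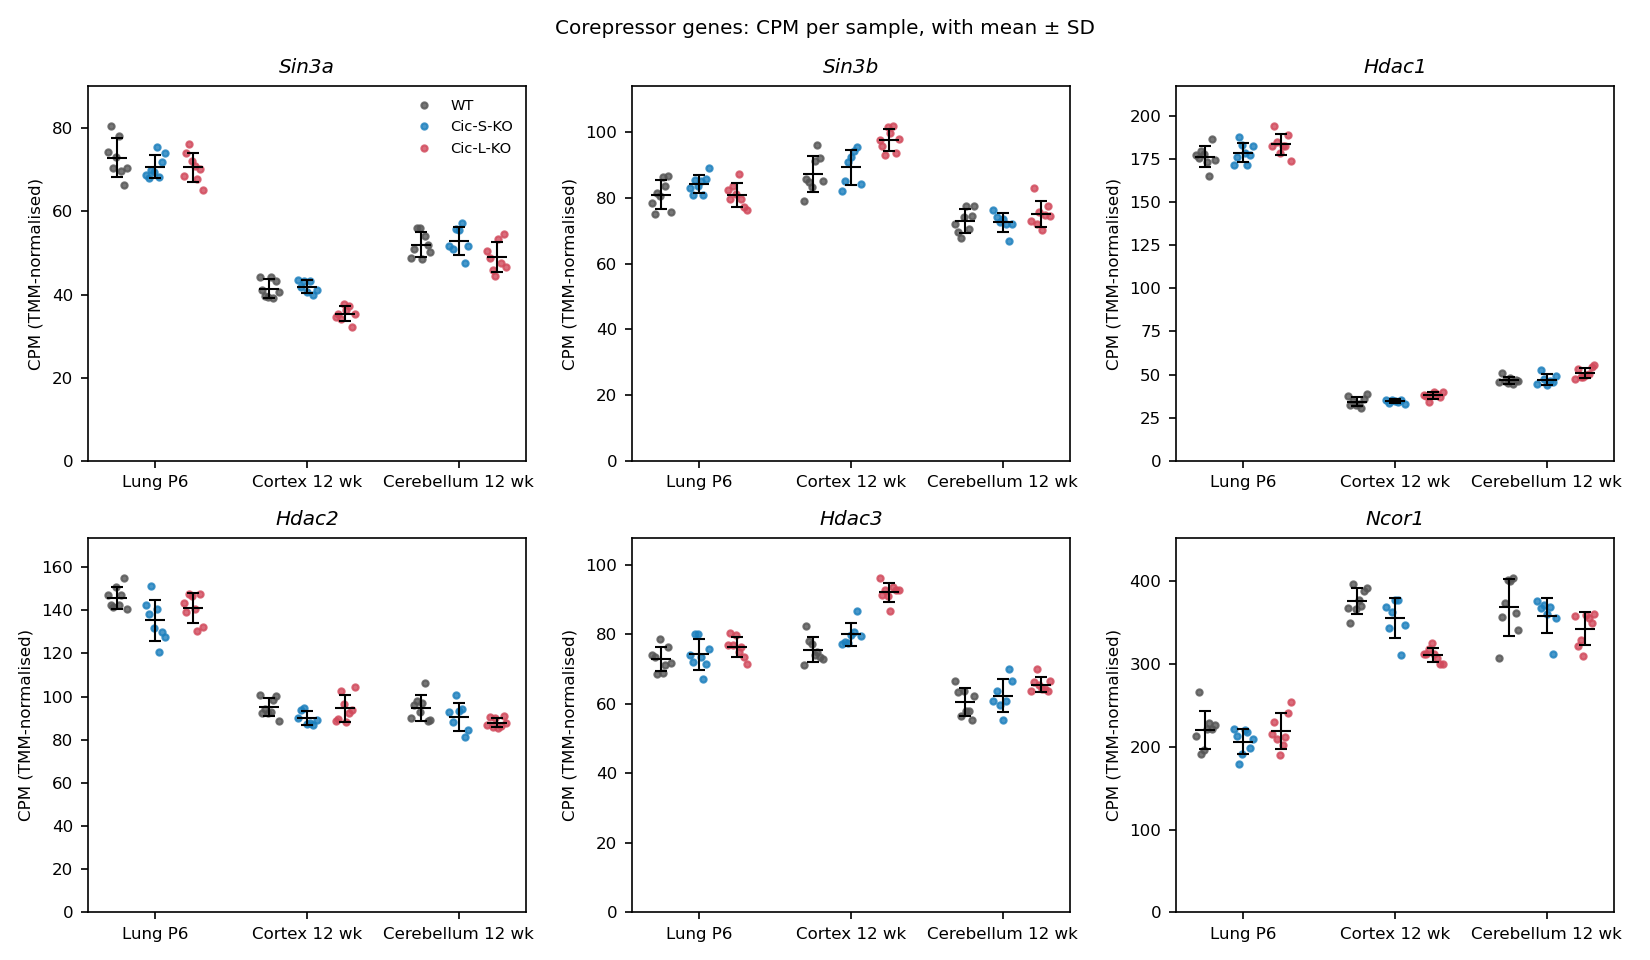
Level of the 6 corepressor genes in CPM for each sample (points), by tissue and genotype, with the group mean and SD (bars). Cic-L-KO cortex is set apart from WT cortex for Hdac3 (86.6 to 96.3 against 71.1 to 82.4 CPM), Sin3a and Ncor1, and the lung groups overlap for all 6 genes.

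Of the 6 comparisons with WT, Cic-L-KO cortex had the most calls both among the 9 genes and among all genes. There 7 of 9 passed against WT, and 43.2% of all genes tested in that contrast did. Of the 9, 5 were higher (21.4% of all genes) and 2 lower (21.9%). In Cic-S-KO cortex 2 of 9 passed, where 6.53% of all genes did. In lung 1 of 9 passed in Cic-S-KO (15.7% of all genes) and 1 in Cic-L-KO (4.89%). In Cic-L-KO cerebellum 3 of 9 passed (21.5%), all of them higher (10.9%). In Cic-S-KO cerebellum edgeR called 0 of 9 (8.23%), with 2 at an unadjusted p under 0.05 and 2 called by DESeq2. Between the knockouts, Cic-S-KO against Cic-L-KO, 7 of 9 passed in cortex (33.9%), 2 in lung (12.2%) and 1 in cerebellum (12.4%). In cortex the corepressors that differed were Sin3a (0.23), Ncor1 (0.18), Hdac3 (-0.22), Sin3b (-0.14) and Hdac1 (-0.15). The calls of Sin3b and Hdac1 were lost without the cortex libraries in which choroid plexus markers summed to over 100 CPM. Their differences were then -0.156 and -0.164 (edgeR adjusted p = 0.0822 and 0.0967), with 5 Cic-S-KO and 3 Cic-L-KO libraries left. The Hdac1 call was also lost with no low-count filter (-0.141, adjusted p = 0.0559).

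**Figure D4:**
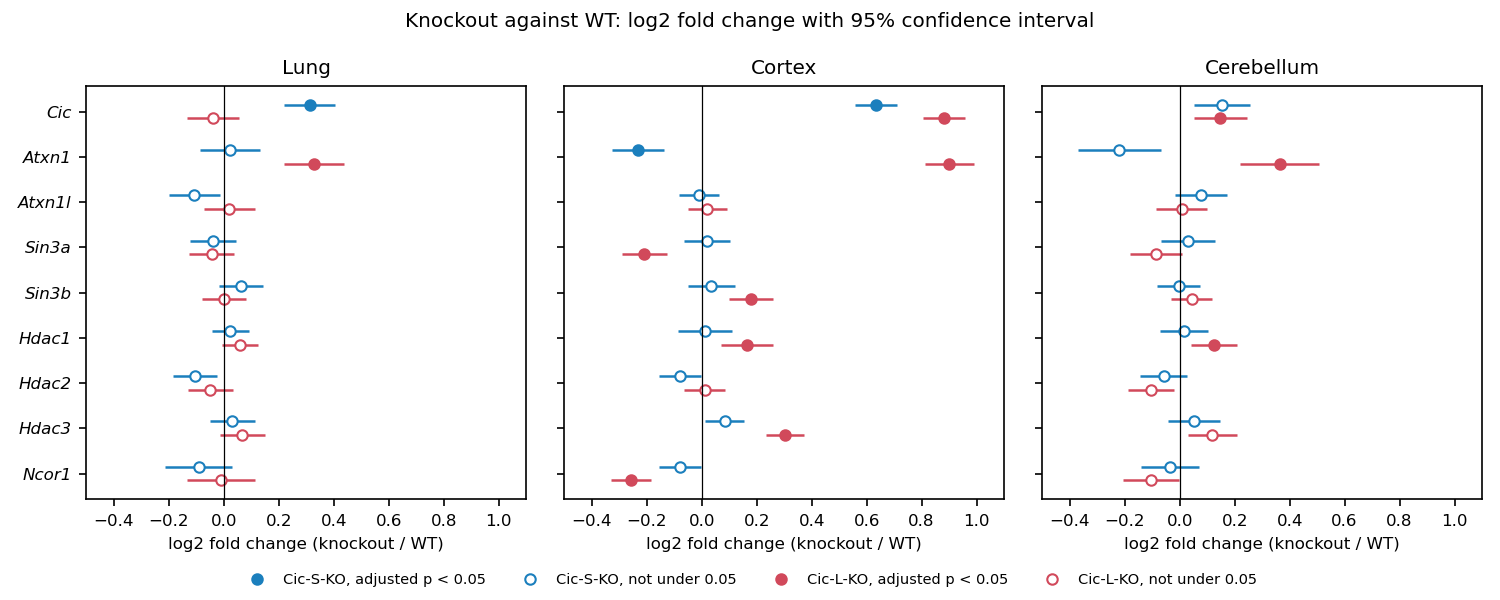
Log2 fold change against WT of the 9 genes in each knockout, in 1 panel per tissue, with 95% intervals, and filled points where the adjusted p was under 0.05. Cic and Atxn1 lie at 0.88 and 0.90 in Cic-L-KO cortex, and most other intervals cross or lie near 0.

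Marker levels moved with genotype in the same libraries. Summed neuron markers (4 genes matched) ran from 5646 to 6350 CPM in WT cortex, 4788 to 5379 CPM in Cic-S-KO cortex and 3897 to 4689 CPM in Cic-L-KO cortex, and 2 of the 4 fell in Cic-S-KO and 4 of 4 in Cic-L-KO. Endothelial markers summed to 131 to 191 CPM in WT cortex and 165 to 210 CPM in Cic-L-KO cortex, where 3 of 5 rose. In cerebellum 3 of 4 neuron markers fell in each knockout, and all 5 endothelial markers rose in Cic-L-KO (152 to 188 CPM against 97.9 to 129 CPM in WT). In Cic-S-KO lung 3 of 5 microglia or macrophage markers rose, with sums of 227 to 309 CPM against 176 to 223 CPM in WT, as did 3 of 4 leukocyte markers, while 2 of 5 endothelial markers fell. Cic-L-KO lung had 2 of 5 microglia or macrophage markers higher (205 to 253 CPM). In Cic-S-KO cerebellum 4 of 5 cerebellum markers fell, with sums of 2220.2 to 3391 CPM against 3352 to 4128 CPM in WT. Cic-L-KO cerebellum had 2 of 5 lower (2610 to 3662 CPM), and 0 of 5 differed between the knockouts. The part of these shifts in the differences of the 9 genes was not tested, and in whole tissue fewer cells of a type and less RNA per cell cannot be told apart.

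Some libraries stood apart in marker genes of other tissue, whose source was not tested. Striatum markers summed to a median of 363 CPM in Cic-S-KO cortex (112 to 423). The medians were 176 CPM in WT cortex (95.7 to 338) and 168 CPM in Cic-L-KO cortex (103 to 309). Of the 5 striatum markers, 0 passed in Cic-S-KO cortex against WT and 1 was higher than in Cic-L-KO cortex. Their part in the differences of the 9 genes was not tested. Choroid plexus markers summed to over 100 CPM in 2 WT, 2 Cic-S-KO and 5 Cic-L-KO cortex libraries. Without these, with 6, 5 and 3 libraries left, Cic, Atxn1, Sin3a, Sin3b, Hdac3 and Ncor1 still passed in Cic-L-KO cortex with differences of 0.80, 0.96, -0.23, 0.21, 0.33 and -0.28. The Hdac1 call was lost there (0.14, adjusted p = 0.123), and in Cic-S-KO cortex Cic (0.61) and Atxn1 (-0.21) both still passed. Cic-S-KO lung replicate 5 had a neuron marker sum of 34.8 CPM against 1.72 to 3.59 CPM in the other 7. Without it, Cic in Cic-S-KO lung was at 0.29 (adjusted p = 0.000312) and the other 2 lung contrasts called as many of the 9 genes as before.

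Whether a knockout effect differed between cortex and cerebellum was tested in 1 fit over the 46 brain samples. For Cic-S-KO, Cic alone of the 9 genes differed, by 0.48 (SE 0.065, adjusted p = 3.23e-05), in a contrast where 4.5% of all genes passed. For Cic-L-KO, 3 genes had a larger effect in cortex, and 23% of all genes passed. These were Cic by 0.73 (SE 0.063, adjusted p = 7.95e-13), Atxn1 by 0.54 (SE 0.086, adjusted p = 5.59e-06) and Hdac3 by 0.19 (SE 0.053, adjusted p = 0.00867). The corresponding differences for Sin3a (-0.12), Sin3b (0.14) and Ncor1 (-0.15) missed the threshold, with adjusted p of 0.14, 0.0588 and 0.0792, although each of these genes passed in cortex and not in cerebellum. The Ncor1 difference passed under 5 alternatives, with the replicate block (adjusted p = 0.0468), DESeq2 (0.0448), RLE (0.0485) and GC-dependent or length-dependent deviations removed (0.0286 and 0.000601). That of Sin3b passed with a mean count of at least 50 (adjusted p = 0.0208) and with the sex covariate (0.0494).

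Against lung, in a fit over all 70 samples that also spans the change of age and batch, 6 of the 9 genes had a different Cic-L-KO effect in cortex, where 20.1% of all genes did. Cic differed by 0.90 (adjusted p = 4.61e-18), Atxn1 by 0.55 (adjusted p = 3.91e-07), Sin3a by -0.18, Sin3b by 0.16, Hdac3 by 0.22 and Ncor1 by -0.26. The Cic-S-KO effect in cortex differed from that in lung for Cic (0.32, adjusted p = 0.000726) and Atxn1 (-0.25, adjusted p = 0.0446), among 8.39% of all genes. Between cerebellum and lung, 1 of the 9 differed for Cic-S-KO, Atxn1l by 0.19 (adjusted p = 0.0484; 7.58% of all genes). For Cic-L-KO edgeR called 0 of the 9 (5.17% of all genes), with 1 at an unadjusted p under 0.05 and 1 called by DESeq2, in both cases Cic. With no low-count filter the calls of Sin3a (adjusted p = 0.092), Atxn1 in Cic-S-KO (0.0727) and Atxn1l (0.106) were lost, as was, with GC-dependent deviations removed that of Sin3b (adjusted p = 0.128). Atxn1l also missed the threshold with length-dependent deviations removed (0.0935).

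In WT brain, where both regions share a batch label, 7 of the 9 genes differed between cortex and cerebellum, near the 73.5% of all genes that did. Atxn1 was higher in cortex by 1.04 (SE 0.061, adjusted p = 1.05e-20), Hdac3 by 0.30 and Sin3b by 0.24. Hdac1 (-0.46), Sin3a (-0.35), Atxn1l (-0.25) and Cic (-0.16) were lower in cortex. Hdac2 and Ncor1 did not pass, with 95% intervals from -0.094 to 0.065 and from -0.082 to 0.099. Hdac2 passed at 0.10 with GC-dependent deviations removed (adjusted p = 0.00667), and Ncor1 at 0.074 with length-dependent deviations removed (adjusted p = 0.0483). The 2 SIN3 scaffolds and the 2 ataxin paralogs therefore had opposite regional order.

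Levels of different genes were compared per kb of exon. In WT cortex the order of means, in CPM per kb, was Ncor1 29.3, Hdac2 21.3, Hdac3 18.6, Cic 17.2, Sin3b 11.9, Hdac1 9.98, Atxn1l 8.59, Sin3a 7.70 and Atxn1 7.54. Only Ncor1 over Hdac2 and Cic over Sin3b were neighbours whose samples did not overlap. WT cerebellum again had Ncor1 highest (28.7) and then Hdac2 (21.2), and Cic came next at 19.0, with Atxn1 lowest at 3.62. In WT lung Hdac1 led at 51.1 CPM per kb, over Hdac2 at 32.6, while Cic was at 12.2 and Atxn1 again lowest at 3.07. From Hdac3, the third in lung, down to Sin3b, each gene overlapped the next. The ratio of Hdac1 to Hdac2 per kb was 1.57 ± 0.057 in WT lung, 0.471 ± 0.046 in WT cortex and 0.643 ± 0.048 in WT cerebellum (SD, n = 8 each). With the longest transcript as the length, 15 of the 27 ranks over the 3 tissues moved, so the order depends on the length used. Atxn1 then ranked above Atxn1l and Sin3a in WT cortex, with means of 9.93, 8.59 and 7.96 CPM per kb, and stayed lowest in lung and cerebellum.

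**Figure D5:**
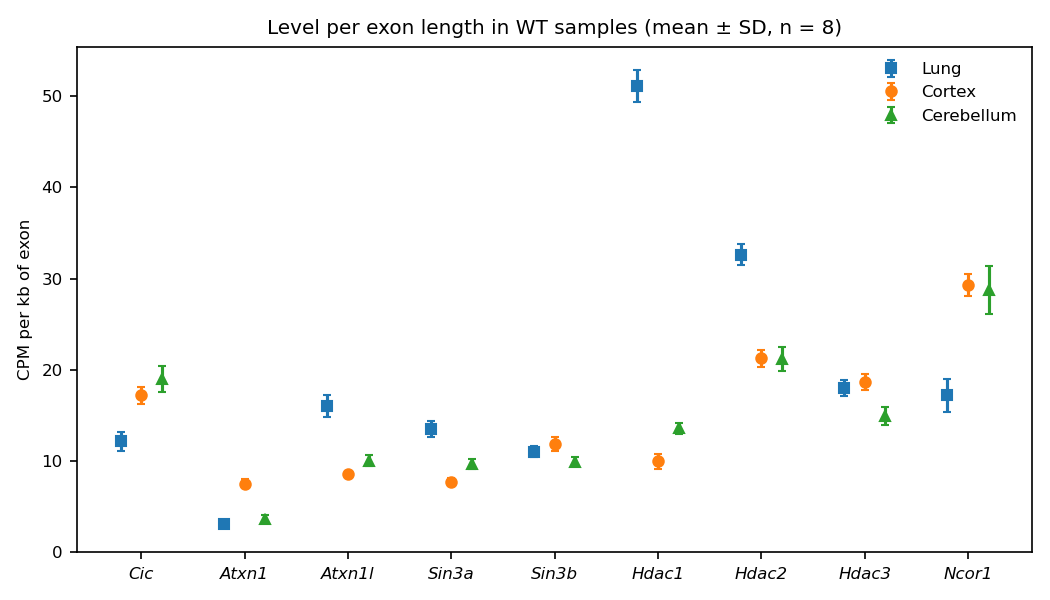
Level of the 9 genes in WT samples as CPM per kb of exon, by tissue (mean and SD, n = 8). Hdac1 is highest in lung (51.1) and Ncor1 in both brain regions (29.3 and 28.7), and Atxn1 is lowest in each tissue by this length, but not in cortex by that of the longest transcript.

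Other genes of the same complexes were taken from 4 lists, 39 genes in all, of which 38 were tested. In Cic-L-KO cortex 17 of 38 passed, 5 higher and 12 lower (44.7%, beside 43.2% of all genes). The SIN3 list accounted for 8 of these, all lower, out of 17 subunits, beside 21.9% of all genes that were lower. That count was 3 without the cortex libraries over 100 CPM in choroid plexus markers, where 3470 of 17303 genes passed, 1728 of them lower. With GC-dependent deviations removed it was 5, where 7124 of 16974 genes passed, 3626 of them lower. The 8 included the histone-binding proteins Rbbp7 (-0.28, SE 0.034, adjusted p = 7.46e-08) and Rbbp4 (-0.19, SE 0.033, adjusted p = 2.38e-05). They also included Ing2, which reads methylated histone H3 (-0.34, SE 0.049, adjusted p = 1.56e-06). Rbbp7 fell from 146 ± 5.66 CPM in WT (SD, n = 8) to 119 ± 6.45 CPM (n = 8). Of the 4 NCOR/SMRT subunits, Tbl1xr1 fell (-0.21, SE 0.037, adjusted p = 2.16e-05), like Ncor1. Its relative Tbl1x passed only in Cic-S-KO lung of the 6 contrasts with WT (-0.13, adjusted p = 0.0295).

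Of the remaining deacetylases in Cic-L-KO cortex, 4 of 7 passed, all of them higher, beside 21.4% of all genes that were higher. The other 3 were Hdac7 (0.13), Hdac8 (-0.048) and Hdac9 (-0.11), with adjusted p of 0.235, 0.571 and 0.0586. Hdac5, a class IIa enzyme, rose from 216 ± 13.4 to 287 ± 17.3 CPM (SD, n = 8 each; 0.43, SE 0.043, adjusted p = 2.72e-09), with all Cic-L-KO samples (264 to 312 CPM) above all WT samples (196 to 237 CPM). Such a separation in that direction was found in 5.51% of cortex genes. Hdac6, the tubulin deacetylase (0.23, adjusted p = 5.20e-05), and Hdac11 (0.19, adjusted p = 0.000812) rose as well. Hdac5 did not pass in Cic-L-KO cerebellum (-0.036, adjusted p = 0.699), and its Cic-L-KO effect differed between cortex and cerebellum by 0.46 (SE 0.074, adjusted p = 4.98e-06).

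Among 10 genes whose products bind or regulate ATXN1, 1 rose and 3 fell in Cic-L-KO cortex, beside 21.4% and 21.9% of all genes. Nlk, a kinase that binds ATXN1, went from a median of 182 CPM in WT (162 to 202.5) to 128 CPM in Cic-L-KO (117 to 144), without overlap (-0.48, SE 0.048, adjusted p = 2.45e-09). In cortex 8.16% of genes had all Cic-L-KO samples below all WT samples. In Cic-L-KO cerebellum Nlk rose instead (0.11, SE 0.039, adjusted p = 0.0353), and the effects differed by -0.59 (SE 0.064, adjusted p = 7.31e-10). The nuclear receptor gene Rora (-0.31, adjusted p = 1.07e-06) and the Pumilio gene Pum2 (-0.24, adjusted p = 2.74e-06) fell in Cic-L-KO cortex too. Over the 4 lists, 11 of 38 passed in Cic-L-KO cerebellum (28.9%, beside 21.5% of all genes). Of these, 1 was higher (beside 10.9% of all genes) and 10 lower (beside 10.6%). The SIN3 list held 6 of the 10, out of 17 subunits. With a mean count of at least 50, the lists again had 11 calls in Cic-L-KO cerebellum, beside 3640 of 12725 genes. In Cic-S-KO, 7 passed in cortex (18.4%, beside 6.53% of all genes), 4 in cerebellum (10.5%, beside 8.23%) and 4 in lung (10.5%, beside 15.7%). Without the cortex libraries over 100 CPM in choroid plexus markers, the 7 in Cic-S-KO cortex became 0, where 165 of 17303 genes passed. The 17 in Cic-L-KO cortex became 11 without them, where 3470 of 17303 genes passed. Without replicate 6 the 4 in Cic-S-KO cerebellum became 2, where 883 of 16734 genes passed. In Cic-L-KO lung edgeR called 0 of 38, with 8 at an unadjusted p under 0.05 and 1 called by DESeq2.

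As a description of shared patterns, each gene's 9 group means of log2 CPM were correlated with those of Cic and of Atxn1, for 12901 genes with a mean of at least 1. All genes were measured in the same libraries at the same depth, and their group means share the split between lung and brain. The 5 genes most like Cic were Efcab12 (Pearson r = 0.948), Fam71e1 (0.946), 2510002D24Rik (0.942), Tmem101 (0.939) and Tmem231 (0.939). Pearson r does not weigh the size of a change. Group means of Tmem101 ran only from 17.2 to 20.3 CPM, where those of Cic ran from 122 to 322 CPM. Efcab12 (2.15 to 8.30 CPM) and Fam71e1 (2.31 to 4.81 CPM) were low throughout. Under RLE, 2510002D24Rik and Tmem101 left the first 5, and by Spearman's rho 2510002D24Rik ranked only 431. The 5 most like Atxn1 were Slc37a4 (0.979), Crocc (0.974), Fam149a (0.972), Cox18 (0.967) and Cyp11a1 (0.965), the same 5 under RLE. By Spearman's rho, however, Crocc ranked only 518 and Fam149a only 697, while Slc37a4, Cox18 and Cyp11a1 were within the first 50. Crocc, which encodes the ciliary rootlet protein, stood at 52.9 ± 5.11 CPM in WT cortex (SD, n = 8) and 117 ± 7.18 CPM in Cic-L-KO cortex (n = 8). Within the 9 genes the highest correlation was between Atxn1l and Hdac1 (0.987) and the lowest between Ncor1 and Hdac1 (-0.959).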

How the data were processed

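The authors deposited raw read counts per gene for 50789 Ensembl identifiers in 70 samples, made from polyA-selected libraries per the labels' protocols. STAR 2.7 and GRCm38.p6 are named in the submitters' processing notes. The counting program, its annotation and its use of strand are not given in the sources used here. Gene names, positions and lengths came from GENCODE M21 (GRCm38), where 50725 identifiers matched with the version ignored and 64 did not. Genes of chromosome 1 were not analysed here.

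Counts were tested with edgeR 4.0.16 in R 4.3.3. Each tissue had a robust quasi-likelihood fit of its 3 genotypes after filterByExpr and TMM, with 16695 genes in lung, 16974 in cortex and 16643 in cerebellum. A fit over 46 brain samples (18032 genes) and one over 70 samples (19821 genes) gave differences between tissues. The CPM printed used TMM factors over 70 samples. Benjamini-Hochberg adjusted p under 0.05 was the threshold. Of 238 replicate pairs, 0 held identical values and the lowest chi-square per degree of freedom was 3.93. The fits were tested on simulated counts.

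Alternatives were DESeq2 1.42.0, RLE, no low-count filter, a mean count of at least 50, a non-robust fit, the label's replicate number as a block, Y-linked expression as a covariate, only the 2 genotypes compared, and counts corrected for GC content or for length (20 bins each, per library; known for 99.9% of genes). The contrasts with lung, the libraries left out and the other scalings of group means were added after seeing the data. The 9 genes and all lists were chosen with earlier results of these data known. Genes named were the 9, up to 3 per partner list with the smallest p among those that passed against WT, and the 5 most alike to Cic and to Atxn1.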

Additional observations from a re-analysis of the deposited data

Results flagged for a closer look

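In 4 of the 81 sets of samples of 1 gene in 1 group, 1 library stood apart from the rest by Dixon's criterion at 95%, and chance gives about 4.05. Cic stood at 134 CPM in Cic-L-KO lung replicate 8 against 118 to 121 CPM in the other 7. Hdac3 stood at 86.7 CPM in Cic-S-KO cortex replicate 6, one of the libraries over 100 CPM in choroid plexus markers, against 77.3 to 80.6 CPM in the other 6. Cic at 184 CPM and Ncor1 at 312 CPM were both lowest in Cic-S-KO cerebellum replicate 6, against up to 232 CPM and 375 CPM in the other 6.

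Effects of a knockout differed between tissues, by a direct test, in 13 cases. Between cortex and cerebellum these were Cic in Cic-S-KO (0.48) and Cic (0.73), Atxn1 (0.54) and Hdac3 (0.19) in Cic-L-KO. Between cortex and lung they were Cic (0.32) and Atxn1 (-0.25) in Cic-S-KO, and Cic (0.90), Atxn1 (0.55), Sin3a (-0.18), Sin3b (0.16), Hdac3 (0.22) and Ncor1 (-0.26) in Cic-L-KO. Between cerebellum and lung it was Atxn1l in Cic-S-KO (0.19). Tissue, age and batch cannot be told apart in the comparisons with lung.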

How the results depend on the processing

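Of the 14 calls among the 9 genes against WT, 11 held under every alternative run. The exceptions were Cic and Hdac1 in Cic-L-KO cerebellum and Hdac1 in Cic-L-KO cortex, with the values given above. The count of the 9 genes called was 2 in Cic-S-KO lung under DESeq2, RLE or the replicate block, the added gene being Hdac2. In Cic-S-KO cerebellum it was 2 under DESeq2, a mean count of at least 50 or the sex covariate, and 1 with no low-count filter, with GC bins or length bins removed, or without Cic-S-KO replicate 6. In Cic-L-KO cerebellum it was 5 under DESeq2, a mean count of at least 50 or only the 2 genotypes. For the cortex against cerebellum Cic-L-KO effect it was 5 with a mean count of at least 50. Against lung, the cortex Cic-S-KO effect gave 1 with no filter. The cerebellum Cic-S-KO effect against lung gave 0 with no filter and 2 with a mean count of at least 50 or length bins removed. The cerebellum Cic-L-KO effect against lung gave 1 under DESeq2 or length bins removed. Hdac2 in WT cortex against WT cerebellum turned from -0.014 to 0.10 (adjusted p = 0.00667, edgeR) with GC bins removed. The cause was not tested for any of these.

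The replicate numbers were not taken to pair the samples: same-numbered deviations correlated at a mean of 0.10 in lung (13 of 24 pairs over 0.1), 0.052 in cortex and 0.0028 in cerebellum, with a lowest pair of -0.039 in lung. Cortex and cerebellum of the same genotype and number correlated at a mean of 0.068 (5 of 23 over 0.1). The labels do not say whether these were the same mice, though the Cic-S-KO library names skip the same number in both regions, and the fit over both regions took the samples as independent. Replicate numbers were those of the sample titles, which differ from the numbers in the Cic-S-KO brain library names after the skipped one. The block within a brain region and its correlations across genotypes therefore joined those Cic-S-KO samples to samples with a different library number. Under the replicate block, 1285 genes passed in Cic-L-KO lung against 817, 627 in Cic-S-KO cortex against 1108, and 591 in Cic-S-KO cerebellum against 1370. Cic-S-KO cortex also fell to 732 genes with no filter, 449 with GC bins removed, 623 with only the 2 genotypes and 165 without the libraries with raised choroid plexus markers, which left 3470 of 7338 genes in Cic-L-KO cortex and 2849 of 5757 between the knockouts. Cic-S-KO cerebellum had 883 without replicate 6. With no filter the cortex against cerebellum Cic-S-KO effect had 446 genes against 812, the cortex against lung Cic-S-KO effect 1026 against 1662, and the cerebellum against lung Cic-L-KO effect 619 against 1024. The partner total in Cic-S-KO cortex (7) was 3 with no filter, the block or only the 2 genotypes and 2 with GC bins removed. That in Cic-S-KO cerebellum (4) was 1 with no filter (beside 1008 of 40672 genes) or only the 2 genotypes (1160 of 16643). It was 0 there under the block (591 of 16643), and that in Cic-S-KO lung (4) was 7 under the block (3339 of 16695). Of 162 group means, 51 moved by 1 SD or more with library size alone as the scale and 0 under RLE.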
